A study of Mus musculus with 22 samples.

Results

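The 93 genes described here were taken by name from the count files of mouse colon crypt cells. They are every gene symbol that begins with Slc1a, Slc3a, Slc5a, Slc6a, Slc7a, Slc15a, Slc16a, Slc36a or Slc38a followed by a digit, and they make up 93 of 24421 gene symbols. The rule reads only the names. The Slc1 family gave 7 genes, Slc3 gave 2, Slc5 gave 13, Slc6 gave 20, Slc7 gave 16, Slc15 gave 5, Slc16 gave 14, Slc36 gave 5 and Slc38 gave 11. The match includes 3 transcripts, Slc36a1os, Slc6a19os and Slc7a6os, that only carry the name of a neighbouring transporter.

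All cells came from the colons of untreated wild type male mice of the C57BL/6N strain aged 5 to 7 weeks, and all were live cells sorted as Epcam+ and lacking Cd31 and Cd45. The 6 populations were stem cells (Stem, n = 3, sorted as Cd44highest, Cd24low and Ckit-), absorptive progenitors (AbsPro, n = 3, Cd44med/hi with Cd24low and Ckit-), a gate of secretory progenitor, deep crypt secretory and goblet cells (SecPDG, n = 4, Cd44hi with Cd24med and Ckitmed), tuft cells (Tuft, n = 5, Ckit+ and Cd24hi), enterocytes (Enterocyte, n = 5, Cd44low/- and Cd24-) and enteroendocrine cells (EEC, n = 2, Cd44low/- and Cd24+). Each library is bulk RNA from sorted cells, and the libraries came from independent mice and sorts. Per the study's methods each Stem and AbsPro library came from a single mouse, and each library of the other 4 types from pooled mice. In such bulk samples, fewer cells of a type and less RNA per cell cannot be told apart.

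Solute carriers are membrane proteins that move small molecules across a cell membrane, many of them by coupling the substrate to the gradient of sodium or of protons. In the colon the epithelium takes up the short-chain fatty acids that bacteria make from fibre, and butyrate, which enters through the proton-coupled carrier Slc16a1 and the sodium-coupled carrier Slc5a8, is the main fuel of mature colonocytes. Amino acids enter on sodium- or proton-coupled carriers and are traded against each other by exchangers of the Slc7 family, most of which need a heavy chain, Slc3a1 or Slc3a2, to reach the membrane.

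Between 4122122 and 22462518 read pairs per library were counted on genes, lowest in EEC 1 and highest in Stem 2. The summed normalized count of 6 stem cell markers was 21013 to 26392 in Stem and at most 11199 in any other library. That of 8 tuft genes was 26964 to 71859 in Tuft and at most 8884 elsewhere, and that of 7 enterochromaffin genes was 597038 in EEC 1, 1715900 in EEC 2 and at most 233989 elsewhere. The enterocyte and the goblet lists did not single out 1 gate. The 8 enterocyte markers summed to 88274 to 137348 in Enterocyte and 109056 to 155930 in AbsPro. The 8 goblet and secretory markers summed to 726272 to 3071720 in SecPDG, 720518 to 1095440 in Tuft and 236035 to 692594 in Enterocyte. They summed to 84344 to 254227 in AbsPro, 36713 to 61791 in EEC and 19418 to 32563 in Stem. The 2 EEC libraries stood apart from each other, with a Spearman correlation over genes of 0.696 against 0.87 to 0.969 within the other groups, and the sum of 8 enterocyte markers was 25076 in EEC 1 and 185799 in EEC 2. As a measure of background, 1509 olfactory, vomeronasal, keratin-associated and trace-amine receptor genes, which colon epithelium is not known to transcribe, were summed. Their share of the gene counts, in CPM, was 12.2 to 157 in the Stem, AbsPro and SecPDG libraries, 179 to 1476 in Tuft, 777 to 3912 in Enterocyte, 7096 in EEC 1 and 625 in EEC 2. Below, the background share of a transporter is the mean level per kilobase of these genes as a percentage of its own.

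All 93 genes were tested. A difference was called where edgeR's quasi-likelihood F test gave a Benjamini-Hochberg adjusted p under 0.01 over 22781 genes and the gene averaged at least 50 normalized counts over the 22 libraries, which 69 of the 93 did. Values are normalized counts, that is reads scaled to a library of average size, and the error after a log2 fold change is its standard error. By this test 62 of the 93 (66.7%) varied among the 6 cell types, against 33.6% of all genes tested. Only genes with a mean of at least 50 could be called: the 62 come from 69 such transporters, and of all such genes 58.0% were called. The 93 genes together summed to 27833 to 70561 normalized counts per library, lowest in EEC 1 and highest in Enterocyte 4.

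The make-up of that pool differed between the cell types when levels were compared per kilobase of transcript. The 5 leading genes held 45.9% of the summed level in Stem, 47.8% in AbsPro, 48.2% in SecPDG, 40.5% in Tuft, 44.4% in Enterocyte and 32.3% in EEC. The EEC value is the mean of 16.5% and 48.1% in its 2 libraries, and the Enterocyte libraries ran from 34.2 to 56.2%. In Stem the order was led by Slc1a5, a sodium-dependent carrier of glutamine and other neutral amino acids, at 1103 per kilobase, followed by Slc16a1 at 836 and the sodium-glucose cotransporter Slc5a1 at 809.7. In AbsPro Slc16a1 stood first with 1536, ahead of Slc5a1 with 977 and Slc1a5 with 939.7. SecPDG and Tuft were both led by Slc1a5 (1214 and 883 per kilobase), with Slc38a10, an orphan carrier of the Slc38 family, and the taurine transporter Slc6a6 next. In Enterocyte the broad amino acid transporter Slc6a14 led with 2258, ahead of Slc16a1 with 973 and Slc5a8 with 929. In EEC the proton-coupled peptide transporter Slc15a1 led with a mean of 994 (395 and 1593 in the 2 libraries). It was followed by Slc38a11, an orphan carrier, with 740.5 (373 and 1108).

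**Figure D1:**
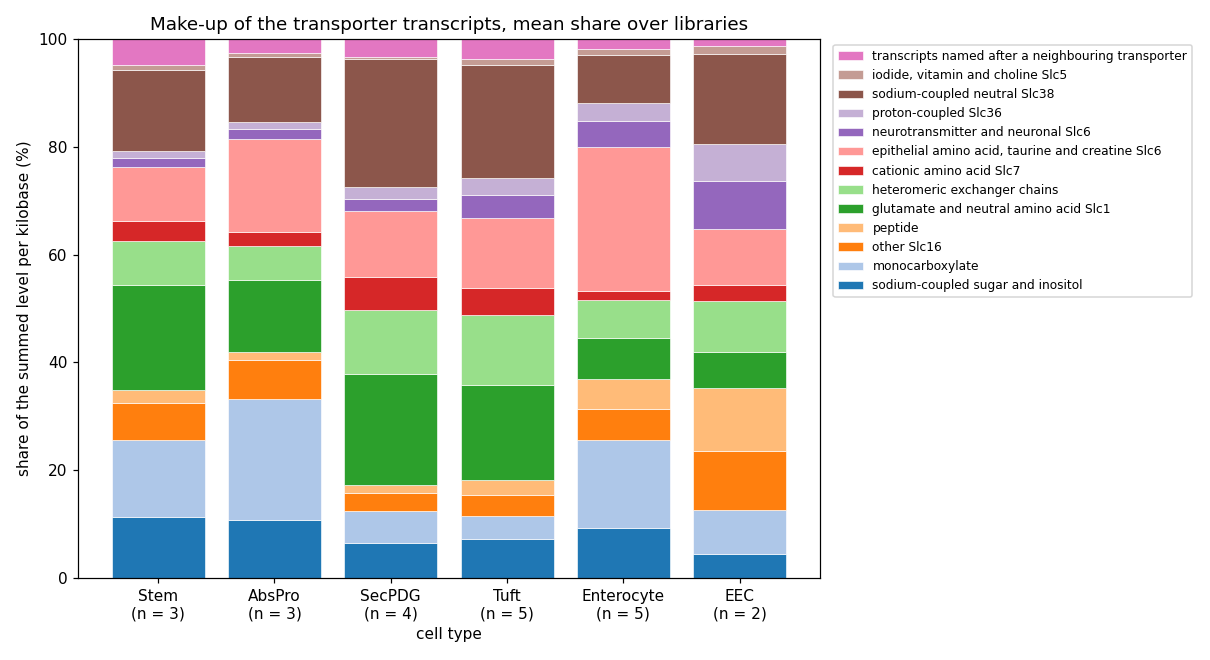
Mean share of the summed transporter level per kilobase (y axis, percent) held by each role in the 6 cell types (x axis, with the number of libraries), as stacked bars that reach 100%. Monocarboxylate carriers hold 22.3% in AbsPro and 4.26% in Tuft, and the epithelial Slc6 carriers hold 26.8% in Enterocyte.

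Grouped by role, the monocarboxylate carriers held 14.4% of the summed level per kilobase in Stem (range over libraries 13.5 to 15.99%) and 22.3% in AbsPro (21.2 to 23.4%). Their share was 5.99% among SecPDG libraries (4.94 to 6.85%) and 4.26% among those of Tuft (3.67 to 4.62%). In Enterocyte they held 16.3% (11.5 to 21.9%), and in the EEC libraries 3.75% and 12.7%. The Slc1 carriers of glutamate and neutral amino acids went from 19.5% in Stem to 20.5% in SecPDG and 7.65% in Enterocyte, and the Slc38 carriers from 15.0% to 23.8% and 8.97%. In these 3 roles the ranges of the SecPDG and Enterocyte libraries did not overlap. The epithelial amino acid, taurine and creatine carriers of Slc6 held 10.04% in Stem, 17.2% in AbsPro and 26.8% in Enterocyte. The shares are a description, and no test was run on them.

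Counted over all 93, the transporters called higher outnumbered those called lower in the mature cells. In AbsPro against Stem 2 were higher and none was lower, where 0.496% and 0.0922% of all genes were called. No member was lower in AbsPro by edgeR or by DESeq2, and 7 were lower at an unadjusted p under 0.05. In SecPDG 4 were higher and 4 lower (3.38% and 1.59% of all genes), with 4 and 9 when library totals replaced TMM factors. In Tuft 14 were higher and 7 lower (7.84% and 4.23%). In Enterocyte 29 were higher and 6 lower (10.7% and 11.5%), and in EEC 22 were higher and 6 lower (10.8% and 9.13%). Against AbsPro, 24 were higher and 6 lower in Enterocyte (8.21% and 7.97%). Against SecPDG, 3 were higher and none lower in Tuft (3.02% and 0.351%), with 1 lower at an unadjusted p under 0.05 and none by DESeq2, and 29 were higher and 9 lower in EEC (11.2% and 10.1%). 

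Non-overlap of the libraries, called or not, is a looser measure. Against Stem, the libraries lay apart for 15 higher and 9 lower members in AbsPro (8.78% and 6.74% of all genes). They lay apart for 13 and 20 in SecPDG (8.88% and 9.77%), for 25 and 11 in Tuft (16.6% and 10.8%), for 46 and 10 in Enterocyte (41.9% and 15.2%) and for 35 and 12 in EEC (24.9% and 20.8%). Against AbsPro the counts were 41 and 8 in Enterocyte (39.5% and 14.1%). Against SecPDG they were 16 and 2 in Tuft (8.16% and 3.22%) and 37 and 14 in EEC (23.2% and 18.5%).

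These splits move with the scaling. With TMM factors the median log2 fold change over genes averaging 50 or more was -0.30 in Enterocyte and in EEC against Stem and -0.38 in Enterocyte against AbsPro, and with DESeq2 size factors it was 0.31, 0.45 and 0.23. With DESeq2 size factors 34 transporters were higher and 4 lower in EEC against Stem, 42 and 3 in Enterocyte against AbsPro, and 38 and 6 in EEC against SecPDG. The shares of all genes with these factors are not given here, so these counts do not set the transporters apart from other genes. No named gene that was called changed direction under either of the 2 other scalings. The counts also rest on single libraries: without EEC 1, 11 were higher in EEC against Stem and 13 against SecPDG, and without Stem 2, 19 were higher in Enterocyte and 5 in Tuft.

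**Figure D2:**
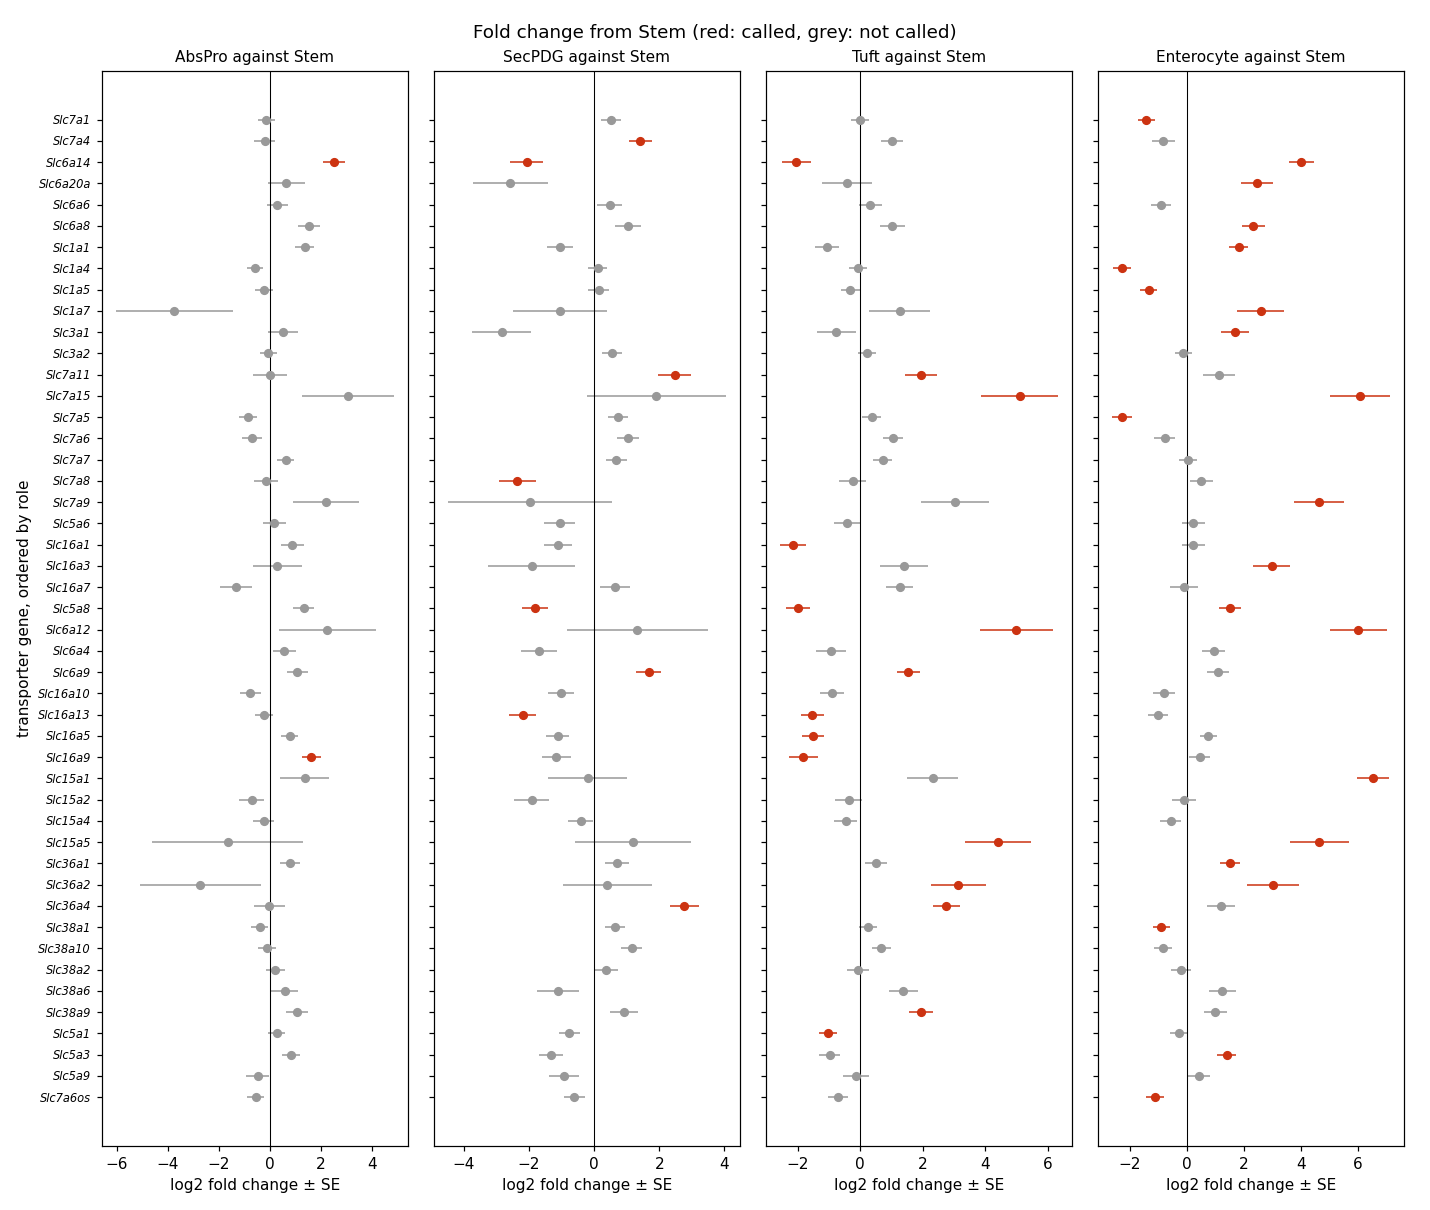
Log2 fold changes (x axis, bars are standard errors) of 47 named genes (rows, ordered by role) against Stem in AbsPro, SecPDG, Tuft and Enterocyte (panels, each with its own scale), with called differences in red and others in grey. In Enterocyte, Slc15a1 lies at 6.52 and Slc1a4 at -2.29.

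The 2 main monocarboxylate carriers stood higher in Stem, AbsPro and Enterocyte than in SecPDG and Tuft. Slc16a1 (Mct1), the proton-coupled carrier of lactate and butyrate, was counted at 3388, 3987 and 3725 in the Stem libraries, 6695, 5819.8 and 7879.7 in AbsPro and 3360.2, 4015, 2045, 8218 and 3889.6 in Enterocyte. In SecPDG it stood at 1348, 1875, 1896 and 1697, in Tuft at 815, 888, 631, 696 and 1092, and in EEC 1 and EEC 2 at 204 and 5478. Every Tuft library lay below every Stem library, EEC 1 lay below all other libraries, and EEC 2 lay above all of Stem and inside the range of Enterocyte. In Tuft it fell 4.46-fold from Stem (log2 fold change -2.16 ± 0.41, adjusted p = 6.94e-05). In AbsPro, where all 3 libraries lay above all 3 of Stem, the test did not call it (log2 fold change 0.88 ± 0.45, adjusted p = 0.567), nor in SecPDG (log2 fold change -1.12 ± 0.42, adjusted p = 0.102).

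Slc5a8 (Smct1), the sodium-coupled butyrate and lactate carrier, gave 1686, 1987 and 1556 in Stem, 5019.9, 3732 and 4296 in AbsPro and 2876, 4361, 2207, 9783 and 5539 in Enterocyte. It gave 587, 306, 541 and 520.0 in SecPDG, 587, 293, 679, 189 and 453 in Tuft and 77.7 and 688 in EEC. All libraries of SecPDG, Tuft and EEC were below all of Stem, and all of AbsPro and Enterocyte above. Slc5a8 fell in Tuft (log2 fold change -1.99 ± 0.39, adjusted p = 0.000101) and SecPDG (log2 fold change -1.82 ± 0.41, adjusted p = 0.00117) and rose in Enterocyte (log2 fold change 1.51 ± 0.38, adjusted p = 0.00102). The SecPDG call was lost without Stem 2 (-1.63, adjusted p = 0.0101) or SecPDG 2 (-1.60, adjusted p = 0.0111), and the Enterocyte call without Stem 3 (1.18, adjusted p = 0.0193). It also fell in EEC (log2 fold change -2.08 ± 0.55, adjusted p = 0.00157), which was -1.51 with an adjusted p of 0.0294 without EEC 1 and -4.49 without EEC 2. In AbsPro it was not called (log2 fold change 1.32 ± 0.41, adjusted p = 0.104).

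Slc16a3 (Mct4), the carrier that exports lactate from glycolytic cells, was highest in EEC. Its counts were 0, 42.2 and 6.06 in Stem, 0, 8.70, 0 and 10.8 in SecPDG, 148, 98.7, 203, 93.5 and 134 in Enterocyte and 759 and 652 in EEC. Both EEC libraries stood above every other library, at a background share of 3.83%. The rise in EEC was 40.7-fold over Stem (log2 fold change 5.35 ± 0.59, adjusted p = 6.42e-11), and it was larger without Stem 2 (7.62), the only Stem library with more than 10 normalized counts. Slc16a3 also rose in Enterocyte over Stem (log2 fold change 2.97 ± 0.64, adjusted p = 0.000151) at a background share of 15.8%, and without Stem 2 that value was 5.20 and without Stem 3 2.37. Slc16a7 (Mct2) averaged 134 ± 40.5 (SD, n = 4) in SecPDG and was at 10.8 and 0 in EEC, below the background level per kilobase there, a fall (log2 fold change -4.88 ± 1.27, adjusted p = 0.00154) that was -10.15 without EEC 1 and -3.60, with an adjusted p of 0.0299, without EEC 2.

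**Figure D3:**
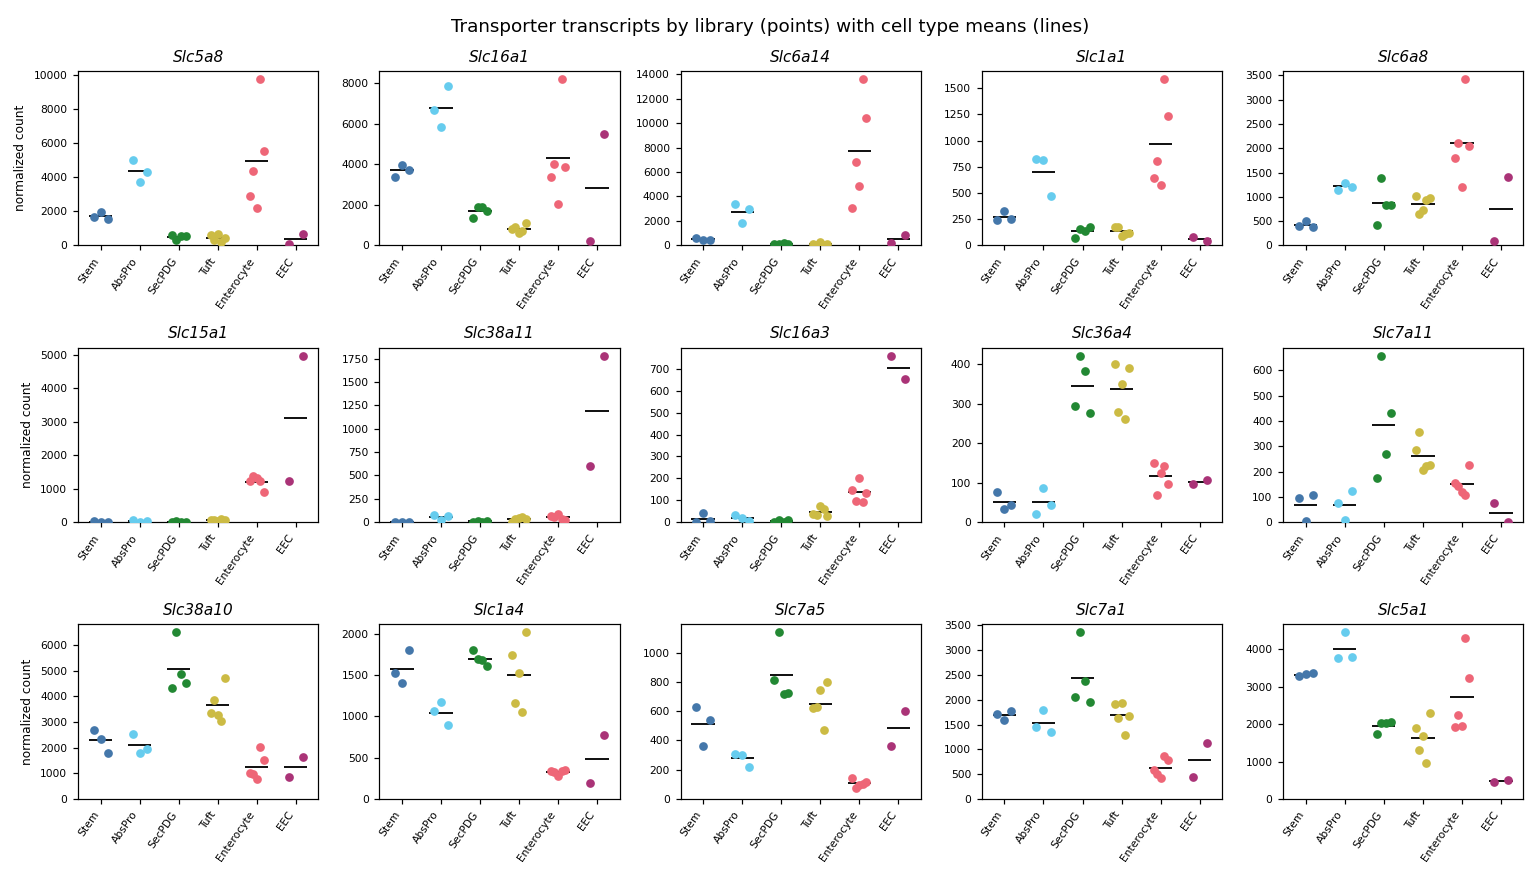
Normalized counts (y axis, 1 panel and scale per gene) of 15 transporters in each of the 22 libraries (points) of the 6 cell types (x axis), with the mean of each cell type as a line. Slc16a1 and Slc5a8 are low in all 5 Tuft libraries, and the 2 EEC points of Slc16a1 lie at 204 and 5478.

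The other Slc16 genes, several of them carriers of aromatic amino acids, carnitine or thyroid hormone and several with no known substrate, moved one by one. Slc16a9, a carnitine carrier, gave 120.1, 165 and 222 in Stem and 475, 482 and 624 in AbsPro, and the 2 sets did not overlap. It rose in AbsPro (log2 fold change 1.62 ± 0.37, adjusted p = 0.00896), but leaving out any 1 of these 6 libraries brought the adjusted p to between 0.0109 and 0.101 (log2 fold changes 1.44 to 1.86). In Tuft it fell (log2 fold change -1.82 ± 0.47, adjusted p = 0.003), a call lost without Stem 3 (-1.63, adjusted p = 0.018) or Tuft 3 (-1.71, adjusted p = 0.01). Slc16a13 fell in SecPDG, from 258, 437 and 455 in Stem to 18.9, 63.4, 120.5 and 126 (log2 fold change -2.20 ± 0.41, adjusted p = 9.98e-05). It fell in Tuft too (log2 fold change -1.54 ± 0.37, adjusted p = 0.00155), with an adjusted p of 0.011 without Stem 2 (-1.43). That Tuft call was also lost with DESeq2 and with counts thinned to equal depth. Slc16a5 gave 509, 309 and 336 in Stem, 240.1, 175, 152 and 137 in SecPDG and 718 and 1638 in EEC, with both EEC libraries above all of Stem and SecPDG. EEC 1 lay inside the ranges of AbsPro (636, 562 and 761) and Enterocyte (695, 671, 429, 748 and 695). In Tuft Slc16a5 fell from Stem (log2 fold change -1.52) to 109, 163, 140, 137 and 121, a call lost without Stem 1 (adjusted p = 0.0155). It rose in EEC over SecPDG (log2 fold change 2.77 ± 0.37, adjusted p = 2.62e-08), where the value without EEC 2 was 2.02, and over Stem (log2 fold change 1.65 ± 0.36, adjusted p = 0.000223), where it was 0.90 with an adjusted p of 0.081 without EEC 2. Slc16a10, the aromatic amino acid carrier Tat1, stood at 189.8 and 1172 in EEC, far apart in the 2 libraries.

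Among the sodium-coupled sugar carriers, Slc5a1 fell in EEC. Slc5a1 (Sglt1), which brings glucose and galactose in with sodium, was counted at 3274, 3327 and 3368 in Stem, 3775, 4463 and 3787 in AbsPro and 1932, 2249, 1954, 4308 and 3237 in Enterocyte. It was counted at 1736, 2027, 2021 and 2058 in SecPDG, 1891, 1307, 1676, 949 and 2289 in Tuft and 448 and 501 in EEC. Both EEC libraries were below every other library. Slc5a1 fell 6.97-fold in EEC from Stem (log2 fold change -2.80 ± 0.46, adjusted p = 2.35e-06) and 4.11-fold from SecPDG (log2 fold change -2.04 ± 0.44, adjusted p = 0.000194). Its fall in Tuft (log2 fold change -1.03 ± 0.30, adjusted p = 0.00799) held without Stem 3 or Tuft 5 alone, and leaving out any 1 of the other 6 libraries ended it (largest adjusted p 0.0257, without Tuft 2). Slc5a3, the sodium and myo-inositol cotransporter, rose in Enterocyte from 646, 615 and 660.3 in Stem to 817, 1392, 889.5, 3009.9 and 2353 (log2 fold change 1.41 ± 0.33, adjusted p = 0.00055), with the lowest Enterocyte library above the highest of Stem. Of the 8 sodium-coupled sugar and inositol carriers, only these 2 and Slc5a11, an inositol carrier of low level, were called against Stem in any cell type.

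**Figure D4:**
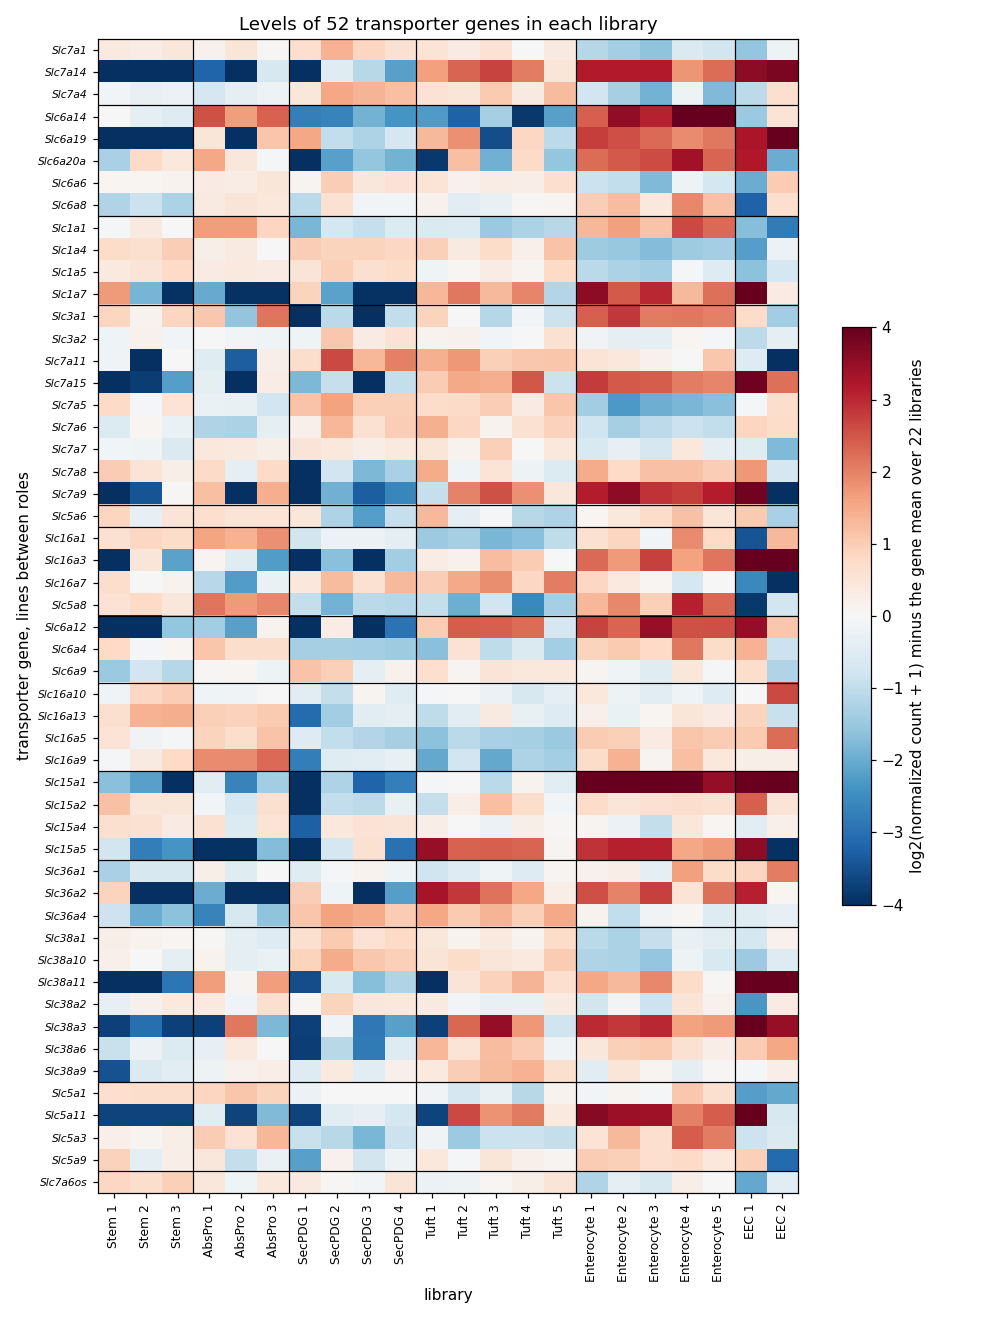
Heat map of 52 named genes (rows) in the 22 libraries (columns, grouped by cell type), coloured by log2 of the normalized count plus 1 minus the mean of the gene over all libraries (red above, blue below). Slc15a1 and Slc38a11 are blue in Stem and deep red in both EEC libraries, while Slc16a1 and Slc6a6 are blue in EEC 1 and red in EEC 2.

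The peptide transporter Slc15a1 (Pept1), which takes up short peptides with protons, gave 23.7, 16.6 and 0 normalized counts in Stem, 57.2, 11.4 and 29.1 in AbsPro and 0, 32.3, 7.58 and 10.8 in SecPDG. It gave 75.7, 77.0, 36.7, 86.3 and 56.0 in Tuft, 1238, 1393, 1312, 1219 and 895 in Enterocyte and 1233 and 4971 in EEC. Every Enterocyte and EEC library was at least 10 times above every library of the other 4 types. Slc15a1 rose 91.7-fold in Enterocyte (log2 fold change 6.52 ± 0.56, adjusted p = 1.12e-13) and 237-fold in EEC (log2 fold change 7.89 ± 0.58, adjusted p = 5.21e-17) over Stem. It rose 35.8-fold in Enterocyte over AbsPro (log2 fold change 5.16 ± 0.50, adjusted p = 1.09e-11) and 274-fold in EEC over SecPDG (log2 fold change 8.10 ± 0.56, adjusted p = 3.58e-18). The background shares were 1.24% in Enterocyte and 0.611% in EEC. These 4 calls held without any 1 library and under every other setting tried, while their size moved with single libraries. Against Stem the EEC value was 8.50 without Stem 1, 7.12 without Stem 3 and 6.54 without EEC 2. The Enterocyte value was 7.13 without Stem 1 and 5.74 without Stem 3. Enterocyte over AbsPro was 5.75 without AbsPro 1, and EEC over SecPDG was 8.82 without SecPDG 2 and 6.74 without EEC 2. The lysosomal peptide and histidine carrier Slc15a4 was flat by comparison, with means of 373 in Stem, 251 in Enterocyte and 243 in EEC and no call. Slc15a2 (Pept2) was called in EEC over SecPDG (log2 fold change 2.84 ± 0.59, adjusted p = 0.000107), where it was 1.49 with an adjusted p of 0.132 without EEC 1 and 3.58 without EEC 2.

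Among the carriers of the Slc6 family that work in epithelia, Slc6a14 rose in both AbsPro and Enterocyte. This carrier takes up neutral and cationic amino acids with sodium and chloride. Its counts were 581, 451 and 406 in Stem, 3416, 1849 and 2995 in AbsPro and 3032, 6857, 4858, 13617 and 10399 in Enterocyte. They were 87.0, 89.5, 157 and 112 in SecPDG, 121, 60.6, 233, 39.1 and 129 in Tuft and 208 and 846 in EEC. The 3 AbsPro libraries and the 5 Enterocyte libraries all lay above Stem, and all SecPDG and Tuft libraries lay below it. Slc6a14 rose 5.76-fold in AbsPro (log2 fold change 2.53 ± 0.43, adjusted p = 0.000207) and 16.2-fold in Enterocyte (log2 fold change 4.02 ± 0.43, adjusted p = 1.98e-10) over Stem. From AbsPro to Enterocyte it rose again (log2 fold change 1.49 ± 0.37, adjusted p = 0.00141), with Enterocyte 1 inside the AbsPro range, and this step was 1.27 with an adjusted p of 0.0203 without AbsPro 2. It fell in Tuft (log2 fold change -2.04 ± 0.47, adjusted p = 0.00106) and in SecPDG (log2 fold change -2.08 ± 0.50, adjusted p = 0.0028). In SecPDG the call was lost without any 1 of 4 libraries (Stem 1, SecPDG 1, SecPDG 2 and SecPDG 4, adjusted p 0.0108 to 0.0238). In EEC over SecPDG (log2 fold change 2.29 ± 0.57, adjusted p = 0.000974) it was 0.88 with an adjusted p of 0.389 without EEC 2.

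Slc6a8, the creatine transporter, gave 389, 497 and 373 in Stem and 1794, 2109.8, 1208, 3429.7 and 2042 in Enterocyte, with no overlap, and rose 5.04-fold (log2 fold change 2.33 ± 0.40, adjusted p = 5.13e-06). Its AbsPro libraries, at 1142, 1289.8 and 1209.8, also lay above all of Stem but were not called (log2 fold change 1.53 ± 0.42, adjusted p = 0.0464). Slc6a6, the taurine transporter, was among the 5 leading genes per kilobase in Stem, SecPDG, Tuft and EEC, and its counts in EEC were 841 and 6723. From AbsPro, at 4206, 4121 and 4639, it fell in Enterocyte to 1831, 1675, 969, 2903 and 2023 (log2 fold change -1.20 ± 0.36, adjusted p = 0.00601), a call lost without AbsPro 2 (-1.23, adjusted p = 0.019), Enterocyte 2 (-1.16, adjusted p = 0.0149) or Enterocyte 3 (-1.03, adjusted p = 0.0223). The Slc6a6 call was also lost with DESeq2, with DESeq2 size factors and with library totals. It was lost too with counts thinned to equal depth and with only the 2 cell types compared. Over all settings its log2 fold change ran from -1.45 to -0.61. Slc6a19 (B0AT1), the main neutral amino acid carrier of the small intestinal brush border, was at 0 in all 3 Stem libraries and at 177, 157, 127, 96.9 and 114 in Enterocyte and 255 and 538 in EEC. Against a floor of 3 counts over the Stem libraries it was at least 195-fold higher in Enterocyte (adjusted p = 5.28e-06) and at least 575-fold higher in EEC (adjusted p = 6.56e-09), at background shares of 14.1% and 6.03%. Slc6a20a, the proline and imino acid carrier Sit1, was called in Enterocyte (log2 fold change 2.47 ± 0.56, adjusted p = 0.000309), with counts of 152, 177, 198, 329.6 and 163 against 12.2, 53.8 and 42.4 in Stem. It has a near-identical copy, Slc6a20b, with which it may share reads, so its value is uncertain. The serotonin reuptake transporter Slc6a4 averaged 143 in Stem, 208 in AbsPro, 43.8 in SecPDG and 268 in Enterocyte and was called in no comparison of 2 cell types. It did vary among the 6 cell types (F test over all 6, adjusted p = 3.37e-05), and Enterocyte was not tested against SecPDG.

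Several carriers of neutral and cationic amino acids, Slc1a4, Slc1a5, Slc7a5 and Slc7a1, fell in Enterocyte. Slc1a4 (Asct1), which exchanges alanine, serine and cysteine, gave 1525, 1404 and 1802 in Stem, 1063, 1170.3 and 892 in AbsPro and 338, 320.1, 274, 335 and 350.3 in Enterocyte. It gave 1804, 1691, 1679.6 and 1609 in SecPDG, 1745, 1166, 1522, 1051 and 2019 in Tuft and 197 and 773 in EEC. The 5 Enterocyte libraries lay within a narrow band below every library of Stem, AbsPro, SecPDG and Tuft. Slc1a4 fell 4.89-fold from Stem (log2 fold change -2.29 ± 0.31, adjusted p = 6.5e-08) and 3.23-fold from AbsPro (log2 fold change -1.69 ± 0.32, adjusted p = 7.43e-05), and both calls held under every setting tried. In EEC against Stem (log2 fold change -1.63 ± 0.41, adjusted p = 0.000997) it was -1.19 with an adjusted p of 0.0153 without EEC 1 and -3.00 without EEC 2. Slc1a5 (Asct2), the glutamine carrier, fell from 2678, 2908 and 3556 in Stem to 973, 854, 801, 1924 and 1432 in Enterocyte (log2 fold change -1.35 ± 0.30, adjusted p = 0.000319) and to 656 and 1261 in EEC (log2 fold change -1.64 ± 0.42, adjusted p = 0.00121), with no overlap. Slc1a1 (Eaac1), which takes up glutamate and aspartate, moved in the opposite direction to these relatives in Enterocyte, from 245, 327 and 252 in Stem to 642, 808, 572, 1589 and 1237 (log2 fold change 1.82 ± 0.34, adjusted p = 2.06e-05). In EEC it was at 77.7 and 36.4 (log2 fold change -2.36 ± 0.67, adjusted p = 0.00323), with a background share of 40.4%, and its adjusted p was 0.0556 without EEC 2 (-1.83) and 0.00254 without EEC 1 (-3.08).

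Slc7a5 (Lat1), the light chain that brings in leucine and other large neutral amino acids, was counted at 629.6, 363 and 539.7 in Stem, 309, 302 and 220.4 in AbsPro and 142, 74.6, 95.9, 105 and 115 in Enterocyte. Its counts were 815, 1140.1, 714 and 723 in SecPDG and 622, 628, 743, 470.4 and 797 in Tuft. All Enterocyte libraries were below all of these. It fell 4.84-fold from Stem to Enterocyte (log2 fold change -2.28 ± 0.35, adjusted p = 1.22e-06). From AbsPro it fell too (log2 fold change -1.41 ± 0.38, adjusted p = 0.00302), but not without AbsPro 2 (-1.35, adjusted p = 0.0153) or Enterocyte 2 (-1.30, adjusted p = 0.0122). This second call of Slc7a5 was also lost with DESeq2, with DESeq2 size factors and with library totals. It was lost too with counts thinned to equal depth and with only the 2 cell types compared. Over all settings its log2 fold change ran from -1.78 to -0.78. Its heavy chain Slc3a2 (4F2hc) was not called in any comparison, with means of 693 ± 97.6 (SD, n = 3) in Stem and 635 ± 90.4 (SD, n = 5) in Enterocyte (log2 fold change -0.13 ± 0.29, adjusted p = 0.711). Slc7a1 (Cat1), the carrier of lysine and arginine, fell from 1718, 1601 and 1776 in Stem to 589.8, 500.2, 425, 868 and 781 in Enterocyte (log2 fold change -1.43 ± 0.30, adjusted p = 0.000145), again without overlap. The chains of the cystine and dibasic amino acid exchanger went up in Enterocyte. Slc3a1 rose from 78.8, 48.0 and 79.5 in Stem to 229.8, 313, 186, 188 and 177 (log2 fold change 1.68 ± 0.48, adjusted p = 0.0029). Slc7a9 rose from 0, 0.640 and 17.5 to 159.5, 213, 132, 121 and 159 (log2 fold change 4.63 ± 0.88, adjusted p = 3.3e-05). The Slc3a1 call was lost without Stem 2, Stem 3, Enterocyte 1 or Enterocyte 2 (1.33 to 1.62, adjusted p 0.012 to 0.0371). It was also lost with DESeq2. Slc7a9 was 3.92 without Stem 2 and 8.19 without Stem 3. Slc7a9 in EEC rested on EEC 1 alone, with 262 normalized counts against 0 in EEC 2.

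Slc36a4 and Slc7a11 rose in both SecPDG and Tuft. Slc36a4, a high-affinity carrier of proline and tryptophan, gave 76.5, 33.9 and 43.1 in Stem, 20.5, 86.2 and 44.1 in AbsPro, 296, 423, 383 and 276 in SecPDG and 402, 280.2, 350.1, 262 and 392 in Tuft. It gave 149, 68.8, 125, 141 and 95.5 in Enterocyte and 97.6 and 108 in EEC. The SecPDG and Tuft libraries lay above every library of the other 4 types. Slc36a4 rose 6.83-fold in SecPDG (log2 fold change 2.77 ± 0.44, adjusted p = 3.66e-06) and 6.74-fold in Tuft (log2 fold change 2.75 ± 0.43, adjusted p = 1.66e-06) over Stem, and both calls held under every setting tried at background shares of 0.590% and 4.75%. Both comparisons use the same 3 Stem libraries. The goblet and secretory markers were also high in both gates, at 720518 or more in every SecPDG and Tuft library and at most 32563 in Stem. They summed to 84344 to 254227 in AbsPro, 236035 to 692594 in Enterocyte and 36713 to 61791 in EEC. The part of these markers in the results shared by SecPDG and Tuft was not tested. Slc7a11 (xCT), the light chain that imports cystine in exchange for glutamate, gave 94.9, 4.48 and 108 in Stem, 174, 658, 269 and 431 in SecPDG and 287, 357, 206, 222 and 227 in Tuft. Stem 2 was far below the other 2 Stem libraries. Slc7a11 rose in SecPDG (log2 fold change 2.47 ± 0.50, adjusted p = 0.000357) and in Tuft (log2 fold change 1.93 ± 0.51, adjusted p = 0.0036). Without Stem 2 the values were 1.91 with an adjusted p of 0.01 and 1.35 with an adjusted p of 0.0525. Without Tuft 2 the Tuft value was 1.80 with an adjusted p of 0.0123. Both calls of Slc7a11 were also lost with DESeq2. From SecPDG to EEC, where it was at 74.1 and 0 and no higher than the background per kilobase, it fell (log2 fold change -3.62 ± 0.84, adjusted p = 0.000416), with -11.62 without EEC 1 and -2.33 without EEC 2. The EEC call was lost without EEC 2, with DESeq2, with DESeq2 size factors, with library totals and with only the 2 cell types compared.

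Slc7a11 and Slc1a4 are textbook targets of the amino acid response, in which the transcription factor Atf4 binds a C/EBP-ATF response element, and the core letters of that element stand in their promoters. The windows printed here are shown because these genes move between the cell types. The letters TGATGCAA were searched on both strands in RefSeq promoters of build GRCm38.p6, from 250 bases before to 50 after each start site, for the 67 of the 93 genes with a promoter entry. They were found in 3 of the 67 (4.48%) and in 279 of 27025 promoters of all genes (1.03%). Capitals mark the match in each 30-base window, which runs 5′ to 3′ on the strand of the gene.
Slc7a11, chr3:50443661-50443690, minus strand, match at -66 from the start site: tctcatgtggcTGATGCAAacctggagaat
Slc7a11, chr3:50443642-50443671, minus strand, match at -47 in reverse orientation: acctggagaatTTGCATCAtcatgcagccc
Slc1a4, chr11:20332699-20332728, minus strand, match at -4 in reverse orientation: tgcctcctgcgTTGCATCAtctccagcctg
Slc7a7, chr14:54417927-54417956, minus strand, match at -1: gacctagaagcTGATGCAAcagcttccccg
The Slc7a11 promoter holds the core 2 times, in opposite orientations, and the 2 windows overlap. Slc7a11 rose in SecPDG, Slc1a4 fell in Enterocyte, and Slc7a7, the basolateral light chain y+LAT1, was called only in EEC against SecPDG (log2 fold change -1.48 ± 0.45, adjusted p = 0.00582). That fall was -0.89 without EEC 2 and -2.40 without EEC 1. Its call was lost without EEC 2, and it missed the threshold without SecPDG 4 (adjusted p = 0.0106). It was also lost with DESeq2, with DESeq2 size factors and with library totals. Counts thinned to equal depth and a fit of only the 2 cell types lost it too. Of 4 other motifs searched on both strands, an HNF4 motif (CAAAGTCCA) was in 1 of the 67 promoters (1.49%, against 0.555% of all promoters), a CDX2 motif (TTTATTG) in 2 (2.99% against 5.33%), the E-box CACGTG in 10 (14.9% against 8.09%) and TATAAA in 8 (11.9% against 15.7%). A match is a run of letters and not a measured binding site.

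Other amino acid carriers also differed between SecPDG or Tuft and another cell type, and some of these shifts were not particular to the secretory gates. Slc6a9 (Glyt1), the glycine transporter, rose from 116, 189 and 148 in Stem to 711, 632, 249 and 363 in SecPDG (log2 fold change 1.67 ± 0.38, adjusted p = 0.00154) and 519, 351, 466, 434 and 438 in Tuft (log2 fold change 1.54 ± 0.37, adjusted p = 0.0016). Neither set overlapped Stem. The Slc6a9 counts of AbsPro (334, 342 and 281) and Enterocyte (350, 285, 233, 446 and 312) also lay above all of Stem. In EEC they were 531 and 141, and none of these 3 cell types was called against Stem. The SecPDG call was lost without Stem 1 (1.52, adjusted p = 0.0208) or SecPDG 1 (1.42, adjusted p = 0.016), and the Tuft call was lost without Stem 1 (1.39, adjusted p = 0.0153) or Stem 3 (1.47, adjusted p = 0.0125). With library totals the SecPDG call of Slc6a9 was lost as well. Slc7a4, an Slc7 relative without an established substrate, went from 237, 209 and 217 in Stem to 352, 761, 664 and 591 in SecPDG (log2 fold change 1.41 ± 0.35, adjusted p = 0.00454), which ended when any 1 library but SecPDG 1 was dropped (1.35 to 1.47, largest adjusted p 0.0189). Slc7a8 (Lat2), the exchanger of neutral amino acids, fell in SecPDG from 245, 178 and 141 to 0, 70.9, 33.7 and 48.97 (log2 fold change -2.36 ± 0.58, adjusted p = 0.00357), lost without Stem 1, Stem 2, SecPDG 1 or SecPDG 3 (-2.34 to -1.92, adjusted p up to 0.0304). The Slc7a8 call was also lost with DESeq2, with DESeq2 size factors and with counts thinned to equal depth. Slc38a9, the arginine sensor of the lysosome, gave 19.1, 149 and 164 in Stem and 294, 439, 535, 583 and 349 in Tuft and rose (log2 fold change 1.95 ± 0.39, adjusted p = 0.000151) whichever library was left out. Its counts in AbsPro (193, 250 and 268), Enterocyte (165, 313, 243, 172 and 233) and EEC (212 and 272) also lay above all of Stem, but were not called. Slc38a10 was the second gene per kilobase in SecPDG, at 933, with counts of 4308, 6519, 4881 and 4525 there and 844 and 1628 in EEC (log2 fold change -2.01 ± 0.42, adjusted p = 0.000109).

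Slc36a1 and Slc38a11 rose in EEC. Slc36a1 (Pat1), which carries small amino acids with protons, gave 284, 448 and 448 in Stem, 789, 854, 549, 2213 and 1174 in Enterocyte and 1271 and 2942 in EEC. It gave 831, 503 and 709 in AbsPro, 509, 666, 774 and 631 in SecPDG and 406, 492, 621, 495 and 756 in Tuft. All libraries of Enterocyte and EEC lay above all of Stem, and it rose in Enterocyte (log2 fold change 1.502 ± 0.35, adjusted p = 0.000472) and in EEC (log2 fold change 2.43 ± 0.41, adjusted p = 3.58e-06), where the value was 1.68 without EEC 2. In EEC over SecPDG (log2 fold change 1.72 ± 0.37, adjusted p = 0.0002) it was 0.97 with an adjusted p of 0.066 without EEC 2. Slc38a11 gave 0, 0 and 2.02 in Stem, 71.3, 23.6 and 70.3 in AbsPro and 0.945, 13.7, 5.90 and 8.81 in SecPDG. It gave 0, 31.5, 41.7, 57.5 and 35.1 in Tuft and 64.4, 55.1, 84.3, 36.5 and 22.2 in Enterocyte. In Enterocyte it was also called higher than in Stem (log2 fold change 6.03, and 5.33 to 8.57 with 1 library left out). In EEC it gave 598 and 1780.0, the 2 EEC values above every other library. Over Stem, where the 3 libraries held 3 counts in all, each of them in Stem 3, the ratio of normalized counts was 1726 with a 95% counting interval of 591 to 8368 (adjusted p = 2.42e-15, and 6.03e-11 without EEC 2). Over SecPDG it rose 173-fold (log2 fold change 7.44 ± 0.62, adjusted p = 4.01e-15), and 6.41 without EEC 2. Slc6a7, the proline transporter Prot, was chosen after its values were seen: its counts were 531 and 1498 in EEC against 91.0, 47.4 and 96.4 in Stem (log2 fold change 3.74 ± 0.47, adjusted p = 4.31e-09), at a background share of 2.01%. It was also called higher in Enterocyte than in Stem, at 212, 192, 246, 284 and 230. In Tuft it gave 35.4, 133, 41.7, 148 and 56.0.

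Most of the calls for higher levels were in genes that the crypt base barely transcribed. Of the 93, 44 averaged under 50 normalized counts in each of Stem, AbsPro and SecPDG, and this split uses the levels of 3 of the cell types, so it is a description. A call needs a mean of 50 over all libraries, which any of the 44 could reach only through Tuft, Enterocyte or EEC. The split and that filter therefore shape the counts of calls that follow, and none of the 44 was called lower in any comparison. Of the calls for higher levels, these 44 held 10 of 14 in Tuft, 19 of 29 in Enterocyte and 17 of 22 in EEC against Stem, 19 of 24 in Enterocyte against AbsPro and 16 of 29 in EEC against SecPDG. The median of their 44 means was 6.13 in Stem, 5.75 in AbsPro, 6.20 in SecPDG, 43.1 in Tuft, 84.2 in Enterocyte and 116 in EEC. The other 49 had a median log2 fold change against Stem of -0.61 in SecPDG, -0.13 in Tuft, 0.04 in Enterocyte and -0.17 in EEC. The 44 hold carriers best known from nerve cells, such as the dopamine transporter Slc6a3 and the betaine and GABA transporter Slc6a12. Slc5a11 and Slc7a14, at 0 in every Stem library, were at least 160-fold and at least 224-fold higher in Enterocyte against a floor of 3 counts over the Stem libraries, at background shares of 10.5% and 30.7%. Of the 12 neurotransmitter and neuronal carriers of the Slc6 family, 4 were called higher in Tuft, 7 in Enterocyte and 6 in EEC against Stem, where 7.84%, 10.7% and 10.8% of all genes were.

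The summed level of the 44 moved with the background. Its range was 243 to 602 normalized counts over the Stem libraries, 211 to 641 over AbsPro and 283 to 594 over SecPDG. In the Tuft group it was 729 in Tuft 5, the library with the lowest background of its group, and 2486 to 3014 in the other 4. In Enterocyte it was lowest in Enterocyte 4, at 3328, which also had the lowest background, and it was 10724 in EEC 1 and 7810 in EEC 2, of which Slc15a1 held 4971. The median background share of the 44 was 16.4% in Tuft, 17.8% in Enterocyte and 17.6% in EEC, and the part of the background in these levels was not tested. With only the libraries whose background was under 1000 CPM (all of Stem, AbsPro and SecPDG, Tuft 1 and Tuft 5, Enterocyte 4 and EEC 2), 1 of the 19 calls of these genes in Enterocyte and 3 of the 17 in EEC against Stem were made again. Here Enterocyte and EEC have 1 library each, whose spread is taken from the other groups, so a lost call is not evidence of no difference. Those made again were Slc15a1 in Enterocyte, and Slc15a1, Slc16a3 and Slc6a19 in EEC. Of the 29 genes called higher in Enterocyte against Stem, 8 were called in these libraries, among them Slc6a14, Slc6a8, Slc5a8, Slc5a3, Slc1a1 and Slc36a1.

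**Figure D5:**
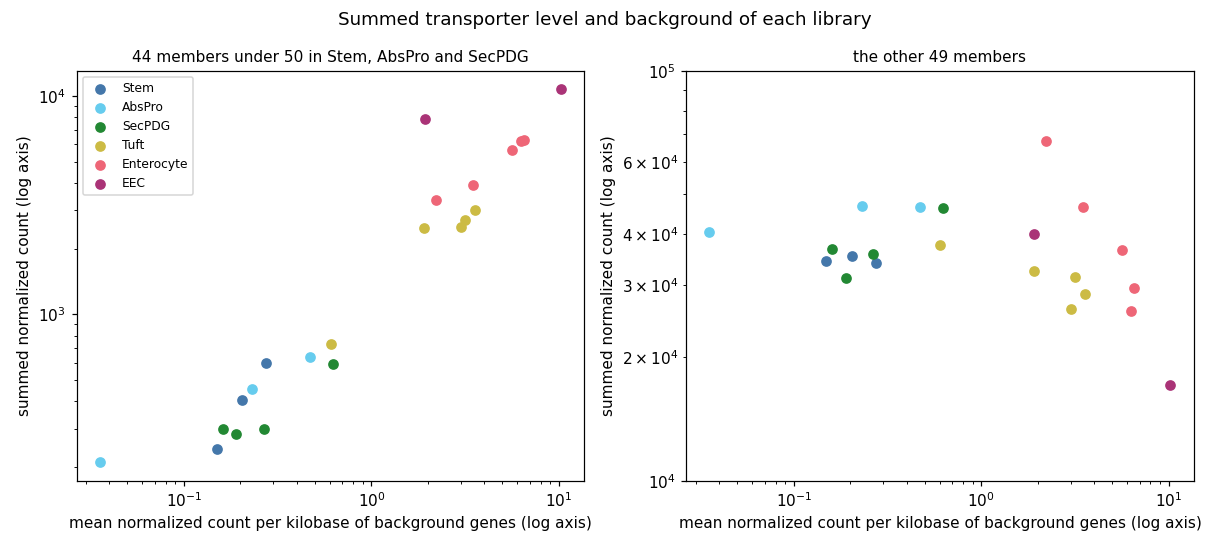
Summed normalized counts (y axis, log scale) of the 44 low transporters (left) and of the other 49 (right) against the mean background level per kilobase (x axis, log scale), 1 point per library coloured by cell type. The 44 run from 211 in the library with the lowest background to 10724 in EEC 1, the one with the highest, while the other 49 lie between 17109 and 67233.

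Markers of cells outside the gates were also counted. The 12 immune genes summed to 207 to 226 in Stem, 1622 to 3656 in Tuft, 566 to 1543 in Enterocyte, 3077 in EEC 1 and 703 in EEC 2. The 8 stromal genes summed to 95.01 to 255 in Stem, 187 to 1493 in AbsPro, 737 to 1521 in Enterocyte and 2268 to 3384 in EEC, and the 4 endothelial genes to 9.60 to 18.9 in Stem, 334 to 783 in Enterocyte and 826 to 1339.6 in EEC. Their part in the transporter levels was not tested.

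Partner proteins of these carriers were taken from a list of their own. Of 10 partner genes found in the files, 2 were higher in SecPDG and the same 2, Anpep and Slc9a3r2, in Tuft, against Stem, where 3.38% and 7.84% of all genes were higher. Slc9a3 (Nhe3), the sodium-proton exchanger that supplies protons to Slc15a1 and Slc36a1, rose in AbsPro (log2 fold change 4.62 ± 0.78, adjusted p = 0.000141), Enterocyte (log2 fold change 6.45 ± 0.64, adjusted p = 5.75e-12) and EEC (log2 fold change 6.03 ± 0.75, adjusted p = 2.22e-09). Its mean was 6.65 ± 7.53 (SD, n = 3) in Stem and 611 ± 122 (SD, n = 5) in Enterocyte. Anpep, the aminopeptidase that frees amino acids from peptides, averaged 4217 ± 813 (SD, n = 4) in SecPDG against 211 ± 44.7 (SD, n = 3) in Stem (log2 fold change 4.31 ± 0.41, adjusted p = 4.72e-12). Slc9a3r2, a scaffold of apical transporters, rose in SecPDG (log2 fold change 4.15 ± 0.44, adjusted p = 1.25e-10) and Tuft (log2 fold change 3.96 ± 0.43, adjusted p = 2e-10). These calls held without any 1 library, while Slc9a3 was 5.87 in AbsPro, 7.52 in Enterocyte and 7.15 in EEC without Stem 3.

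Of 11 facilitative sugar transporters, which carry sugar down its gradient, 2 were higher in SecPDG, 1 in Tuft, 3 in Enterocyte and 2 in EEC against Stem, where 3.38%, 7.84%, 10.7% and 10.8% of all genes were higher. Slc2a10 averaged 38.2 ± 28.2 (SD, n = 3) in Stem, 668 ± 203 (SD, n = 4) in SecPDG (log2 fold change 4.09 ± 0.46, adjusted p = 5.81e-10) and 629 ± 95.9 (SD, n = 5) in Tuft (log2 fold change 4.02 ± 0.45, adjusted p = 3.61e-10), where the values were 4.84 and 4.70 without Stem 3. The fructose carrier Slc2a5 was higher in SecPDG (log2 fold change 2.54 ± 0.54, adjusted p = 0.000674), with 2.28 and an adjusted p of 0.0112 without Stem 3 and 3.39 without Stem 2. The ubiquitous glucose carrier Slc2a1 was higher in Enterocyte (log2 fold change 1.14 ± 0.32, adjusted p = 0.0029), lost without Stem 2 (0.93, adjusted p = 0.0248) or Stem 3 (0.75, adjusted p = 0.0505).

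Of 14 genes of the amino acid response, 2 were higher in SecPDG, 2 higher and 1 lower in Tuft, 2 higher and 6 lower in Enterocyte, and 1 higher and 2 lower in EEC, against Stem. Of all genes, 3.38% were higher in SecPDG, 7.84% higher and 4.23% lower in Tuft, 10.7% and 11.5% in Enterocyte, and 10.8% and 9.13% in EEC. In EEC Nupr1 was higher (log2 fold change 2.79 ± 0.64, adjusted p = 0.000349), and its log2 fold change was 0.89 (adjusted p = 0.445) without EEC 1. Phgdh was lower in EEC (log2 fold change -2.20 ± 0.57, adjusted p = 0.00138), at -1.15 (adjusted p = 0.104) without EEC 2 and -4.61 without EEC 1, as was Shmt2 (log2 fold change -2.14 ± 0.40, adjusted p = 2.68e-05). Asns, which makes asparagine, rose in SecPDG from 387 ± 26.7 (SD, n = 3) to 1274 ± 394 (SD, n = 4) (log2 fold change 1.71 ± 0.32, adjusted p = 0.000106), and Nupr1, a stress-induced cofactor, rose in SecPDG (log2 fold change 3.64 ± 0.58, adjusted p = 4.48e-06), Tuft (log2 fold change 4.07 ± 0.58, adjusted p = 2.15e-07), where it was 3.45 without Tuft 5, and Enterocyte (log2 fold change 2.96 ± 0.56, adjusted p = 3.07e-05). Of the serine and glycine synthesis genes of the list, 3 fell in Enterocyte, namely Phgdh (log2 fold change -1.98 ± 0.38, adjusted p = 4.37e-05), Psat1 (log2 fold change -1.47 ± 0.41, adjusted p = 0.00244) and Shmt2 (log2 fold change -2.78 ± 0.30, adjusted p = 1.87e-10), and Psph was not called (log2 fold change -0.99 ± 0.48, adjusted p = 0.0705). Of these, Shmt2 went from 1662 ± 341 (SD, n = 3) to 241 ± 72.8 (SD, n = 5). Of 20 genes by which the kinase mTORC1 senses amino acids, edgeR called none in AbsPro, SecPDG or Tuft, where at an unadjusted p under 0.05 none, 1 and 2 differed, and 1 was higher and 1 lower in Enterocyte and in EEC against Stem (of all genes, 10.7% and 11.5%, and 10.8% and 9.13%). The higher one was Rragd, a Rag GTPase, in both Enterocyte (log2 fold change 3.85 ± 0.79, adjusted p = 8.79e-05) and EEC (log2 fold change 4.05 ± 0.95, adjusted p = 0.000455), at background shares of 19.9% and 20.5%. The values were 3.26 in Enterocyte without Stem 2, 6.18 and 6.41 in Enterocyte and EEC without Stem 3, 4.75 in EEC without EEC 2, and 2.97 in EEC without EEC 1, where the adjusted p was 0.0706. The lower ones were Seh1l in Enterocyte (log2 fold change -1.18 ± 0.32, adjusted p = 0.00174) and Sec13 in EEC (log2 fold change -1.75 ± 0.46, adjusted p = 0.00166), with -2.35 without EEC 2, both subunits of the GATOR2 complex.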

How the data were processed

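RNA of sorted colon epithelial cells was amplified with a low-input kit from 1 ng, sequenced as paired reads, aligned by the authors to mm10 with STAR 2.5.2a and counted per gene, without regard to strand, with HTSeq 0.6.1p1. The deposited values are raw read counts per gene and library. Rows that name no gene held a median of 55.6% (SecPDG) to 84.3% (Enterocyte) of the read counts and stayed out. Because strand was not used, an antisense or overlapping transcript cannot be told apart from its neighbour.

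All 22 libraries were fitted with edgeR 4.0.16 in R 4.3.3 (filterByExpr, TMM, quasi-likelihood F test, cell type as the only term), with Benjamini-Hochberg adjustment over 22781 genes. 1 count table per library was used, with no unmapped column. The replicates are independent mice or pools of mice, so p-values for pooled types measure the spread between pools. Levels per kilobase use the union exon length of GENCODE M21. Intervals and floors cover counting error only. Self-tests ran on simulated counts. Of 100 genes changed 2-fold against Stem, the test called 2 in Enterocyte and 0 in EEC. Of 100 changed 4-fold it called 63 and 21. A difference that was not called is therefore not shown to be absent. The members, roles and lists were chosen with earlier results of these data known. Named are 36 listed genes, up to 5 non-overlapping calls each way against Stem (3 in the other comparisons) and the 5 highest per kilobase in each cell type, 53 in all, and some genes are not reported here. DESeq2 1.42.0 and other settings served as alternatives.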

Additional observations from a re-analysis of the deposited data

Results flagged for a closer look

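In 13 of 159 groups of 4 or 5 libraries of a named gene, 1 library lay farther from the rest than Dixon's 95% limit allows, where chance gives about 1 in 20 groups. SecPDG 1 was low for Slc15a4 (25.53 normalized counts, the other libraries 348 to 381), Slc16a9 (17.96, the others 90.8 to 105) and Slc5a1 (1736, the others 2021 to 2058). The same library was high for Slc1a7 (27.42, the others 0 to 2.49) and Slc6a19 (75.63, the others 10.1 to 15.7). SecPDG 2 was high for Slc6a12 (27.35, the others 0 to 1.96).

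Enterocyte 4 was high for Slc6a20a (329.6, the others 152 to 198), Slc6a4 (497.3, the others 189.7 to 237) and Slc7a7 (566.9, the others 266 to 338). Enterocyte 3 was low for Slc16a5 (428.6, the others 671 to 748) and high for Slc6a12 (253, the others 115 to 149). Enterocyte 1 was high for Slc16a10 (254.6, the others 133 to 167). Tuft 1 was high for Slc5a6, a carrier of biotin and pantothenate (474.8, the others 80.3 to 187).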

How the results depend on the processing

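Of 130 calls of named genes, 30 held in every setting tried and 55 without any 1 library. By setting, 109 held with DESeq2, 114 with DESeq2 size factors, 114 with library totals, 116 without the low-count filter, 108 with counts thinned to equal depth, 98 with only the 2 cell types compared, and 128 with a replicate block. The older quasi-likelihood method kept 77 and the low-background libraries 55, both chosen after seeing the data. The cause of the changes was not tested. EEC has 2 libraries, so each value there that leaves 1 out, like those of Enterocyte and EEC in the low-background libraries, assumes that the lone library varies like the other groups.

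The shares of all genes called under each setting below, or without each library, are not given. These counts therefore do not set the transporters apart from other genes. Numbers of members called moved as follows. With DESeq2 they were 4 higher in AbsPro, 8 higher and 7 lower in SecPDG, 15 higher in Tuft against SecPDG and 3 lower in Enterocyte against AbsPro. With DESeq2 size factors they were 5 higher in AbsPro, 45 in Enterocyte and 34 in EEC against Stem, and 42 higher and 3 lower in Enterocyte against AbsPro. With library totals they were 9 lower in SecPDG, and 40 higher and 3 lower in Enterocyte against AbsPro. Without the filter 1 was higher in AbsPro, and without a minimum mean 38 were higher in Enterocyte against AbsPro. At an adjusted p under 0.05 they were 5 higher and 1 lower in AbsPro, 9 lower in SecPDG, 25 higher in Tuft against Stem and 19 against SecPDG. With only the 2 cell types compared they were 6 higher in AbsPro, 8 higher and 7 lower in SecPDG, 8 higher and 1 lower in EEC, 2 lower in Enterocyte against AbsPro, 1 lower in Tuft against SecPDG, and 19 higher and 3 lower in EEC against SecPDG. With thinned counts they were 1 higher in AbsPro, 2 lower in SecPDG, 6 higher in Tuft against Stem and 1 against SecPDG, and 3 lower in Enterocyte against AbsPro. With the older method they were 1 higher in AbsPro, 2 lower in SecPDG, 7 higher in Tuft, 15 in Enterocyte and 13 in EEC against Stem, 2 higher and 3 lower in Enterocyte against AbsPro, 0 higher in Tuft and 18 higher in EEC against SecPDG. In the low-background libraries they were 7 higher and 1 lower in AbsPro, 7 higher and 9 lower in SecPDG, 7 higher in Tuft, 9 higher and 2 lower in Enterocyte, 10 higher in EEC, 5 higher and 1 lower in Enterocyte against AbsPro, 0 higher in Tuft and 11 higher and 5 lower in EEC against SecPDG, with 39 varying among the cell types.

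Leaving out 1 library gave 53 to 63 varying among cell types, 1 to 2 higher and 0 to 0 lower in AbsPro, 2 to 3 higher and 2 to 4 lower in SecPDG, 5 to 18 and 5 to 7 in Tuft, 18 to 30 and 4 to 9 in Enterocyte, 11 to 25 and 5 to 9 in EEC, 7 to 22 and 1 to 8 in Enterocyte against AbsPro, 0 to 13 and 0 to 0 in Tuft against SecPDG, and 13 to 30 and 8 to 12 in EEC against SecPDG. The number higher was 7 without AbsPro 1 in Enterocyte against AbsPro, 13 without Tuft 5 and 0 without SecPDG 1 or SecPDG 3 in Tuft against SecPDG, 5 without Stem 2 in Tuft, 18 without Stem 3 in Enterocyte and 11 without EEC 1 in EEC. Signs turned without EEC 1 for Slc15a5 (-4.99) and Slc7a9 (-5.72) in EEC against Stem and Slc7a9 (-3.78) against SecPDG, which were -5.10, -5.83 and -3.87 in the low-background libraries, and without EEC 2 for Slc6a6 in EEC against Stem (-2.07) and Slc16a1 in EEC against SecPDG (-3.06). The same values ranged up to 5.60 for Slc15a5, 7.75 for Slc7a9 and 0.77 for Slc6a6 in EEC against Stem, and to 7.36 for Slc7a9 and 1.48 for Slc16a1 in EEC against SecPDG.

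No pairing of libraries by replicate number was seen: over 44 pairs with the same number the median correlation of deviations was -0.00932, and 9 exceeded 0.1. Over 154 pairs with other numbers the median was 0.00943, and 38 exceeded 0.1. Deviations from the means of so few libraries cannot exclude a pairing. With the replicate block 4 were higher in AbsPro and 11 in Tuft against SecPDG, and Slc6a14 in Enterocyte against AbsPro was 1.05 with an adjusted p of 0.0124.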
